A study of Mus musculus with 8 samples.

Results

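The genes described here make, move and use creatine and arginine in the mouse kidney. They were chosen by name for their place in these pathways, with earlier results of these data already known. The genes are Gatm, Gamt, Slc6a8, Ckb, Ckmt1, Ass1, Asl, Arg2, Oat and Odc1. All 10 were found once each among the 49315 Ensembl gene IDs of the count table, and all 10 were abundant enough to be tested. Messenger RNA was sequenced from frozen kidneys of 4 control animals, which the protocol calls wild type, and of 4 conditional knockout animals in which the targeted gene was Kdm1a. Its product LSD1 is a histone demethylase that acts on H3. The Cre driver, the strain, the age and the sex of the animals, and whether a kidney was sequenced whole, are not given in the sources used here. The question addressed is how the transcripts of these pathways differ between kidneys with and without intact Kdm1a.

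Creatine stores phosphate energy in muscle and brain, and its synthesis is shared between organs. In the kidney, Gatm joins arginine and glycine into guanidinoacetate, which Gamt then methylates to creatine, chiefly in the liver. The proximal tubule is also the main site where circulating citrulline is turned into arginine, by Ass1 and then Asl. Arginine is split into ornithine and urea by the arginases, and ornithine leads either to proline and glutamate through Oat or to the polyamines through Odc1.

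Library totals ran from 19524945 to 28544511 counts, so 1 count stood for 0.0350 to 0.0512 CPM, the unit in which the counts of every library are brought to the same total. Values below are CPM after scaling by trimmed mean of M values (TMM). Kdm1a itself was at 110 to 120 CPM in the controls and 90.9 to 95.3 CPM in the knockouts (log2 fold change −0.27, SE 0.05, edgeR adjusted p 0.0194). Kidney markers were present in every library, and 1 of 18 proximal tubule markers, Slc22a7, was at 0 in some. Control replicate 2 and knockout replicate 3 lay between the groups on the first principal component, at 9.6 and 9.7, against −78.7 to −52.4 for the other controls and 48.3 to 68.4 for the other knockouts. Y-linked transcripts summed to 229 to 289 CPM in 5 libraries and to 0.76 to 2.63 CPM in control replicate 2 and knockout replicates 1 and 4. A list of 12 adrenal genes summed to 3299 CPM in knockout replicate 1, 425 CPM in knockout replicate 4, 186 CPM in control replicate 4 and 19.2 to 35.6 CPM elsewhere. A list of 10 germ cell and oocyte genes summed to 56.6 CPM in control replicate 2 and to 2.09 to 4.93 CPM elsewhere.

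In the knockouts 3 of the 10 genes fell, namely Gatm, Ass1 and Odc1, and the other 7 did not pass the test. Passing means an adjusted p under 0.05 in the quasi-likelihood test of edgeR over 18485 genes, of which 14.9% were called, 8.27% lower and 6.61% higher. The count of members that rose was 0, although Oat had an unadjusted p of 0.0413, and DESeq2 also gave 0 while limma-voom gave 1, Oat. In all, DESeq2 called 5 of the 10 and 24.4% of all genes, and limma-voom 8 of the 10 and 44.9% of all genes. The median log2 fold change was −0.48 over the 10 genes and 0.00 over all genes tested. Only Gatm, Ass1 and Odc1 among the 10 had every knockout library below every control, which held for 9.58% of all genes tested. The count differed when single libraries were left out. Without control replicate 2, 7 of the 10 fell, where 37.4% of all genes were called in either direction. Leaving out knockout replicate 4 gave 0 called members, with 0.819% of all genes called. In that fit 5 of the 10 had an unadjusted p under 0.05, beside 5035 of all 18672 genes. The count of called members was 1, Gatm, without control replicates 1, 3 or 4 or knockout replicate 1, where 2.86%, 2%, 3.65% and 3% of all genes were called. It was 2, Gatm and Ass1, without knockout replicate 2 (3.15% of all genes) or with a covariate for adrenal transcripts (7.4%). Without both control replicate 2 and knockout replicate 3, 9 of the 10 were called, all but Gamt, with 42.7% of all genes. Of these 9, 8 were lower and 1, Oat, was higher (log2 fold change 0.18, adjusted p 0.0401). Both libraries lay between the groups on the first principal component of these same data, so their removal favours more calls. Leaving out knockout replicate 3 alone gave 4, with Ckmt1 beside the 3, and 17% of all genes. A block for the replicate number gave 5 (17.5% of all genes), and fitting only libraries with Y-linked transcripts gave 3, with Asl in place of Odc1 (16.7%). Gatm, Ass1 and Odc1 were the called members with DESeq2 size factors or the tables per library (14.9% each), without a filter on low counts (7.36%), with a minimum mean of 1 CPM (17.3%) and with a covariate for Y-linked transcripts (11.2%).

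**Figure D1:**
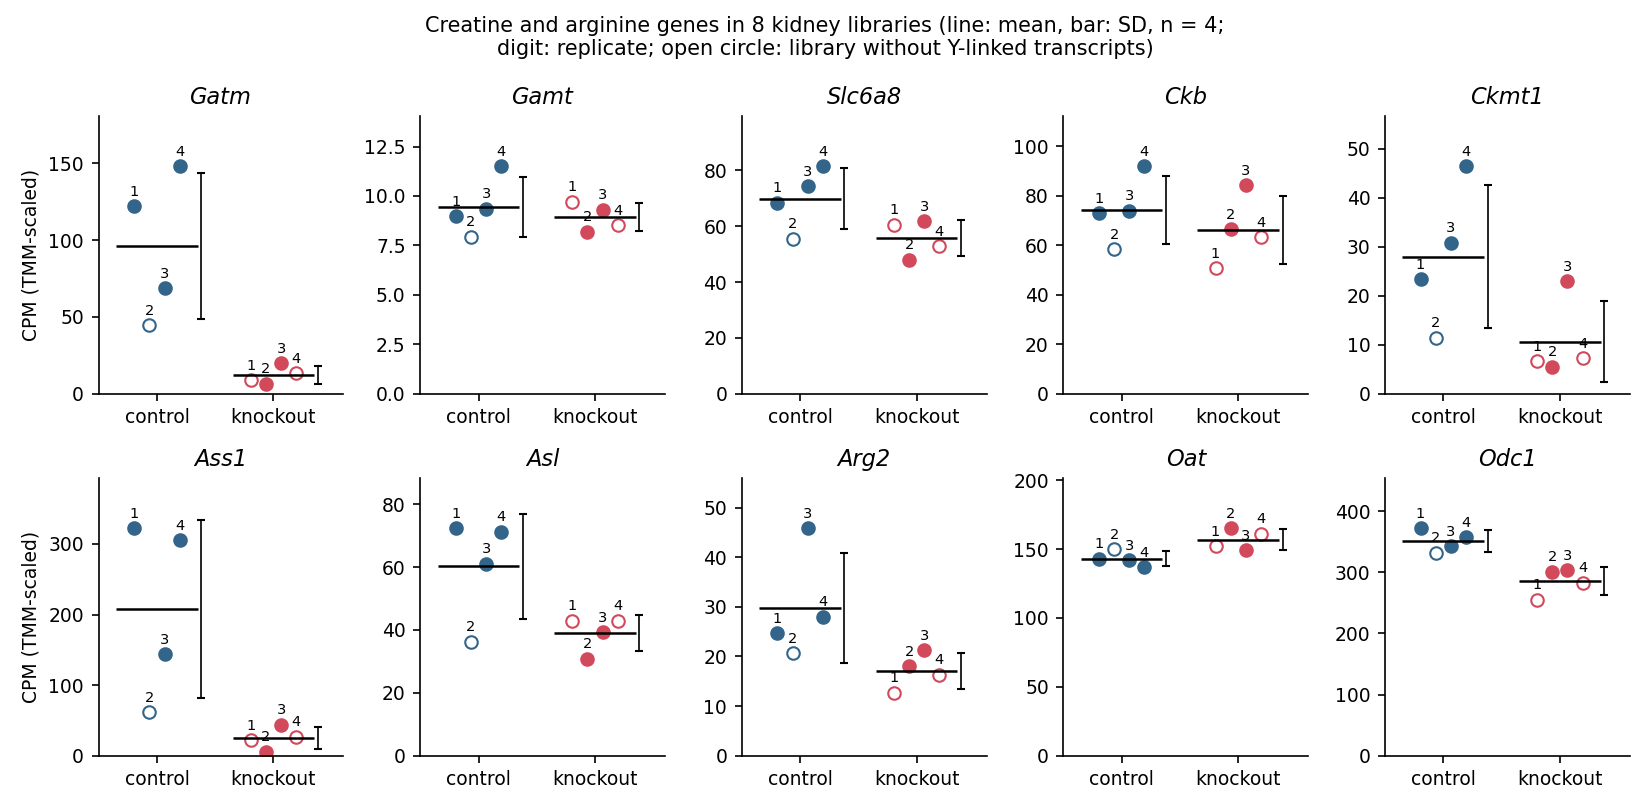
TMM-scaled CPM of the 10 genes in each library, with the replicate number beside each point, the mean as a line and the SD as a bar (n = 4 per group); open circles are libraries without Y-linked transcripts. Gatm, Ass1 and Odc1 have all knockouts below all controls, and Ass1, Ckmt1 and Gatm vary most among the controls relative to their means.

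The promoters of the genes that fell are shown because they let the reader compare the start regions of Gatm, Ass1 and Odc1. The sequences are from RefSeq (GRCm38.p6), 5′ to 3′ on the strand of the gene, and stop where the transcribed region begins in either RefSeq or the deposited table. Capitals mark hits of the GC box, which is spelled GGGCGG, on either strand in Odc1. In Gatm they mark hits of the box for the factor NF-Y, which is spelled CCAAT.
Gatm, chr2:122611304-122611527, minus strand: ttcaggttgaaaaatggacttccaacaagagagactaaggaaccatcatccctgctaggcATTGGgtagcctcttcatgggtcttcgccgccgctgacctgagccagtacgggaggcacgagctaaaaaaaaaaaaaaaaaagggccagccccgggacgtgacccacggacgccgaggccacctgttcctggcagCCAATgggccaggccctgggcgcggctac
Ass1, chr2:31470020-31470206, plus strand: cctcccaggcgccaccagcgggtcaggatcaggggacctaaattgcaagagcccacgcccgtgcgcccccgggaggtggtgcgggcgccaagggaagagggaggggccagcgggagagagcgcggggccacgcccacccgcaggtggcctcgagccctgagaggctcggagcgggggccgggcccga
Odc1, chr12:17544623-17544872, plus strand: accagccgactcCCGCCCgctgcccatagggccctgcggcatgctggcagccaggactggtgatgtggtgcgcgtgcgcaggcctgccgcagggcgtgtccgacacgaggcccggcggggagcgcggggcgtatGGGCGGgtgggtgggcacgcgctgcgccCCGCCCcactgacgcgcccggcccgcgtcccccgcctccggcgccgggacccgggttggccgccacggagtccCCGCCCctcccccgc

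The start regions had little in common in these letters. Promoter windows of 300 bases, from 250 before to 50 after the RefSeq start, were at hand for 7 of the 10 genes: Gatm, Gamt, Ckb, Ckmt1, Ass1, Oat and Odc1. Gatm held 2 NF-Y boxes and no GC box, and Odc1 held 4 GC boxes and no NF-Y box. In the whole window Ass1 held 1 GC box and 1 E-box, spelled CACGTG, both downstream of the stretch printed above. GC content of the printed stretches was 57.6% for Gatm, 75.4% for Ass1 and 80.0% for Odc1. Both strands were searched, the motifs do not overlap one another in these windows, and of 32851 windows 35.7% held a GC box, 37.4% an NF-Y box and 7.2% an E-box. The letters GTTAAT, which form part of the site of the tubule factor HNF1, were in 7.1% of all windows and in 0 of those of the members.

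Gatm (ENSMUSG00000027199, GRCm38 chromosome 2, 122594467 to 122611303, minus strand) encodes the amidinotransferase of the first step of creatine synthesis. Its level was 122, 44.7, 68.8 and 148 CPM in control replicates 1 to 4. In knockout replicates 1 to 4 it was 8.62, 6.43, 19.6 and 13.1 CPM. The groups did not overlap, and the highest knockout was still below control replicate 2, the lowest control. Gatm fell to 12.5% of the control mean, from 95.8 ± 47.3 to 11.9 ± 5.82 CPM (mean ± SD, n = 4 each; log2 fold change −2.99, SE 0.45, adjusted p 0.0110). With each library left out in turn, the call was kept 7 of 8 times, and without knockout replicate 4 the adjusted p was 0.0524.

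Gamt (ENSMUSG00000020150, chromosome 10, 80258151 to 80261012), the methyltransferase of the next step, was low and nearly level. It lay between 7.93 and 11.5 CPM in the controls and between 8.18 and 9.71 CPM in the knockouts, so the groups overlapped. The log2 fold change was −0.08 (SE 0.14, adjusted p 0.715), and it was 0.02 without control replicate 4. Per base of exon, the ratio of Gatm to Gamt within a library, which does not depend on scaling, was 2.72 to 6.55 in the controls and 0.378 to 1.01 in the knockouts. The ratio was above 1 in all controls and below or about 1 in the knockouts.

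Among the genes that import and use creatine, none passed the test. Slc6a8 (chromosome X, 73673150 to 73682502), the creatine importer of the cell surface, ranged from 55.5 to 81.5 CPM in controls and from 48.0 to 61.8 CPM in knockouts (log2 fold change −0.33, SE 0.13, adjusted p 0.105). Ckb (chromosome 12, 111669355 to 111672338), the cytosolic creatine kinase, ranged from 58.4 to 91.9 CPM and from 50.7 to 84.2 CPM (−0.17, SE 0.17, adjusted p 0.502). For both genes the ranges of the groups overlapped. Annotated Ckb pseudogenes exist, and reads that match them may be split from those of Ckb.

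Ckmt1 (ENSMUSG00000000308, chromosome 2, 121357714 to 121363737) encodes the ubiquitous mitochondrial creatine kinase. It was at 23.3, 11.4, 30.8 and 46.4 CPM in control replicates 1 to 4. In knockout replicates 1 to 4 it was at 6.55, 5.52, 22.9 and 7.19 CPM. Knockout replicate 3 lay within the range of the controls, while the other knockouts lay below all of them. The log2 fold change of −1.40 (SE 0.53) had an adjusted p of 0.101. It was −2.10 (adjusted p 0.0209) without knockout replicate 3 and −1.66 without control replicate 2, both past the test. Knockout replicate 3 also stood above the other knockouts in the summed markers of the thick ascending limb (339 CPM against 44.4 to 84.4) and of principal cells (877 CPM against 175 to 249). The part of these cell types in the level of Ckmt1 was not tested.

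Ass1 (ENSMUSG00000076441, chromosome 2, 31470207 to 31520672, plus strand) encodes argininosuccinate synthase, which joins citrulline and aspartate. Its level was 322, 61.3, 144 and 305 CPM in control replicates 1 to 4. In knockout replicates 1 to 4 the level was 21.7, 5.82, 43.7 and 26.7 CPM. Every knockout lay below every control, although control replicate 2 was closer to knockout replicate 3 than to the other controls. Ass1 fell to 11.8% of the control mean, with means of 208 ± 126 CPM in controls and 24.5 ± 15.6 CPM in knockouts (SD, n = 4 each). The edgeR log2 fold change was −3.08 with an SE of 0.65 and an adjusted p of 0.0222. Leaving out libraries in turn kept the call 3 of 8 times, without control replicate 2, knockout replicate 2 or knockout replicate 3. In the other 5, without control replicates 1, 3 or 4 or knockout replicates 1 or 4, the adjusted p ran up to 0.0752 and the log2 fold change stayed between −3.22 and −2.77.

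Asl (ENSMUSG00000025533, chromosome 5, 130011258 to 130029247), the lyase that releases arginine in the following step, differed less. It was at 72.3, 36.2, 61.1 and 71.2 CPM in the controls and at 42.9, 30.8, 39.2 and 42.9 CPM in the knockouts. Control replicate 2 was within the range of the knockouts, and the other controls were above it. The log2 fold change of −0.63 (SE 0.21) had an adjusted p of 0.0699. Without control replicate 2 it was −0.81, past the test at an adjusted p of 0.002. Within a library, the ratio of Ass1 to Asl per base of exon was 3.39 to 8.92 in the controls and 0.379 to 2.23 in the knockouts, with no overlap.

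Of the genes that take arginine and ornithine further, Odc1 alone passed the test. Odc1 (ENSMUSG00000011179, chromosome 12, 17544873 to 17551502, plus strand), ornithine decarboxylase, opens polyamine synthesis. It was at 372, 332, 343 and 358 CPM in control replicates 1 to 4 and at 255, 301, 304 and 283 CPM in knockout replicates 1 to 4. The groups did not overlap, and replicates differed far less than for Gatm or Ass1. Odc1 fell by 18.7% (log2 fold change −0.30, SE 0.07, adjusted p 0.0292). This call was kept 2 of 8 times when libraries were left out in turn, without control replicate 2 or knockout replicate 3. In the other 6, without control replicates 1, 3 or 4 or knockout replicates 1, 2 or 4, the adjusted p ran up to 0.0982. The adrenal covariate gave −0.25 with an adjusted p of 0.0621.

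Arg2 (ENSMUSG00000021125, chromosome 12, 79130777 to 79156301), the mitochondrial arginase found in the straight proximal tubule, was at 24.7, 20.7, 45.8 and 28.0 CPM in the controls. In the knockouts it was at 12.7, 18, 21.3 and 16.3 CPM. Only knockout replicate 3 and control replicate 2 overlapped. The log2 fold change of −0.81 (SE 0.25) had an adjusted p of 0.0591, and it was −0.95, past the test, without control replicate 2. Without control replicate 3, the highest, it was −0.52. Exons of Vti1b on the opposite strand overlap those of Arg2. Whether strand was used in counting is not stated, so reads in the shared stretches may not be told apart.

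Oat (chromosome 7, 132557478 to 132576398), the mitochondrial aminotransferase that links ornithine to glutamate and proline, was the only member with a positive log2 fold change. It was between 137 and 150 CPM in the controls and between 149 and 165 CPM in the knockouts (0.14, SE 0.06, adjusted p 0.127). The ranges overlapped slightly, and Oat was not called with any single library left out. The ratio of Oat to Odc1 per base of exon was 0.413 to 0.488 in the controls and 0.530 to 0.644 in the knockouts, without overlap.

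Per length, the members differed widely in abundance. In CPM per kilobase of exon, the control means were 138 ± 6.82 for Odc1, 86.2 ± 52.4 for Ass1, 60.5 ± 2.29 for Oat, 50.3 ± 9.3 for Ckb and 31.9 ± 15.8 for Gatm (SD, n = 4 each). The remaining control means were 20.9 ± 7.75 for Arg2, 13.4 ± 2.11 for Slc6a8, 12.5 ± 3.47 for Asl, 11.2 ± 5.86 for Ckmt1 and 6.53 ± 1.02 for Gamt. Each neighbouring pair in this order overlapped within 1 SD of the means. In the knockouts Odc1, Oat and Ckb led with 112 ± 8.91, 66.5 ± 3.18 and 44.7 ± 9.34, separated by more than their SDs. Ass1, next after Odc1 in the controls, was at 10.1 ± 6.47 in the knockouts. The mean of Gatm was the lowest, at 3.98 ± 1.94, with Gamt at 6.19 ± 0.486. Gatm overlapped within 1 SD with Gamt and with Ckmt1, at 4.22 ± 3.31, so it could not be ordered against either.

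**Figure D2:**
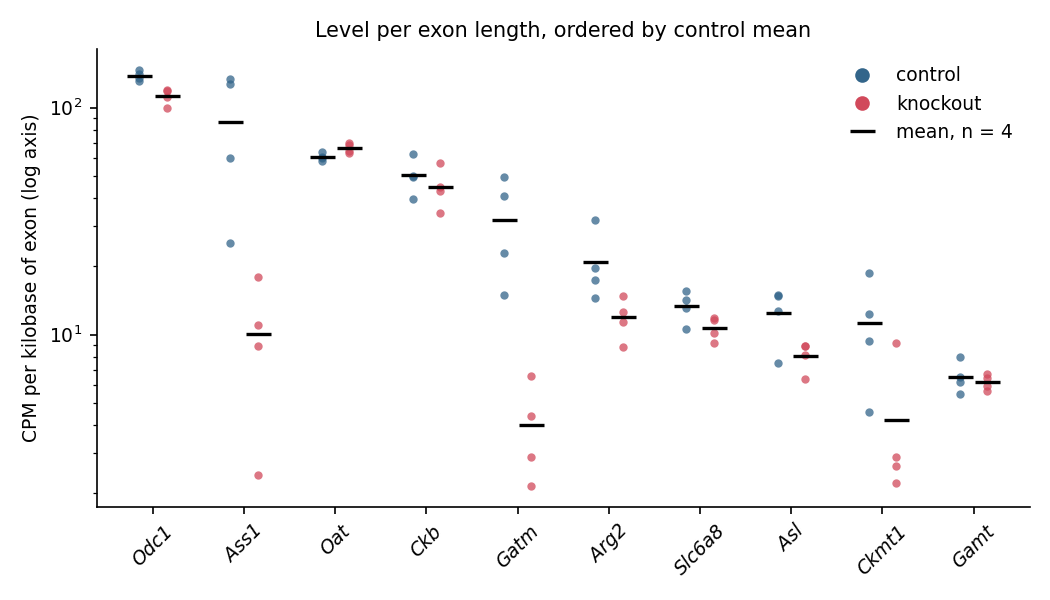
Level of each gene in CPM per kilobase of exon on a log axis, for every control and knockout library, with the group mean as a black line (n = 4 each). Genes are ordered by their control mean, from Odc1 at 138 to Gamt at 6.53. By mean, Gatm moves from place 5 in controls to the last in knockouts, at 3.98, where it overlaps Ckmt1 and Gamt within 1 SD.

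The libraries without Y-linked transcripts were compared among themselves, since there were 1 such control and 2 such knockouts. There Gatm was 44.7 CPM in control replicate 2, against 8.62 and 13.1 CPM in knockout replicates 1 and 4. Ass1 was 61.3 CPM against 21.7 and 26.7 CPM, and Odc1 332 CPM against 255 and 283 CPM. All 3 genes were lower in the knockouts there, which follows from every knockout library lying below every control. With 1 control there was no test. Within the 3 controls and 2 knockouts that carry Y-linked transcripts, Gatm changed by −3.08 (adjusted p 0.0213) and Ass1 by −3.35 (adjusted p 0.0425). There Asl was also called, at −0.95 with an adjusted p of 0.0163, and Odc1, at −0.24, had an adjusted p of 0.0626.

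Genes of the proximal tubule, the segment where Gatm and Ass1 are known to be made, moved with these members. All 17 tested markers of 18 had lower values, and 16 fell, with a median log2 fold change of −2.88. Their summed level was 1653, 658, 1312 and 2439 CPM in control replicates 1 to 4, and 224, 103, 403 and 249 CPM in knockout replicates 1 to 4. Gatm amounted to between 5.24% and 7.39% of this sum in the controls and to between 3.85% and 6.25% in the knockouts. For Ass1 the same share was 9.31% to 19.5% and 5.66% to 10.8%. For both genes the shares overlapped between the groups, unlike the levels. For Gamt, Slc6a8, Ckb, Ckmt1, Asl, Arg2, Oat and Odc1 the share was higher in every knockout than in every control, for Oat 37.0% to 161% against 5.62% to 22.8%. A share rises by arithmetic wherever a gene falls by a smaller factor than the sum, and the sum was lower in every knockout. In bulk tissue, fewer cells of a type and less RNA per cell cannot be told apart. Medians below 0 were also seen for the marker lists of the thick ascending limb (−2.42, 4 of 7 called lower), podocytes (−0.98, 2 of 6) and endothelium (−0.45, 1 of 7). For intercalated cells the median was −1.64, with 0 of 7 called and 5 at an unadjusted p under 0.05 (6489 of 18485 over all genes). The distal convoluted tubule list was split, with a median of −2.44, 3 of 5 called lower and 2 with higher values. Its summed level overlapped between the groups, at 665 to 1023 CPM in controls and 558 to 719 CPM in knockouts. The median was −0.52 for principal cells, with 0 of 6 called lower and 1 higher. It was 0.55 for fibroblasts, with 1 of 7 called higher, 0.12 for nephron progenitors, with 2 of 6 called lower, and 0.06 for leukocytes, with 1 of 6 called higher.

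**Figure D3:**
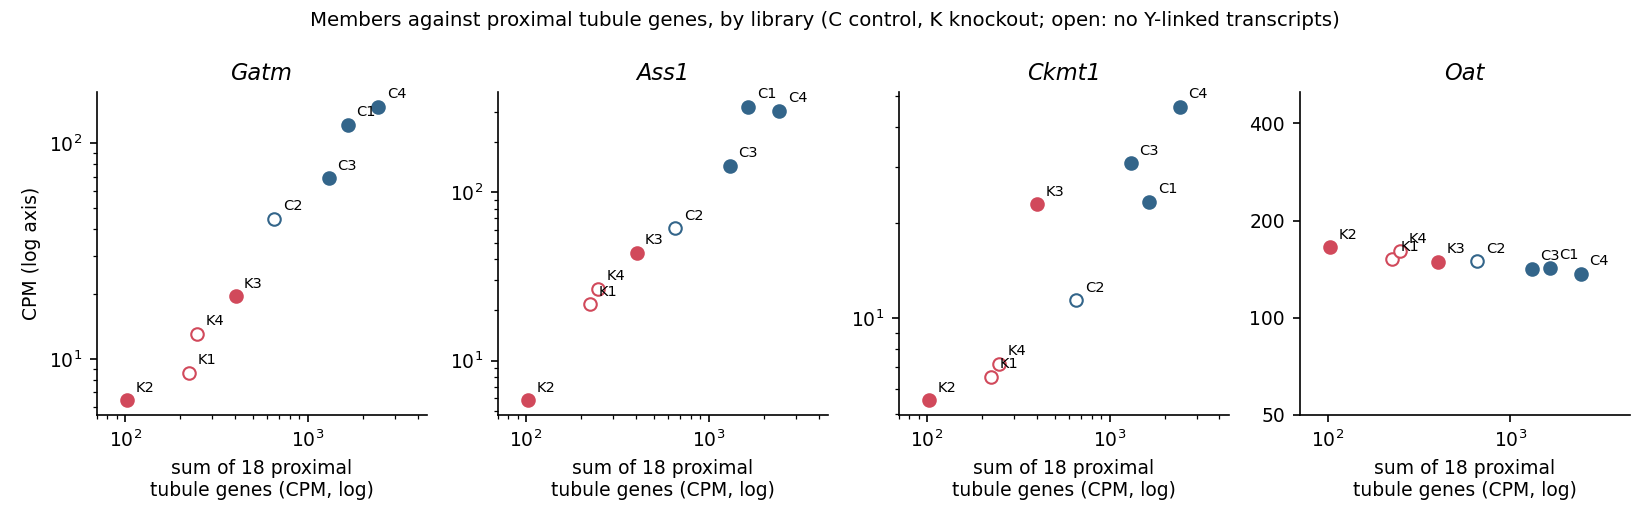
CPM of Gatm, Ass1, Ckmt1 and Oat in each library against the summed CPM of 18 proximal tubule genes, both on log axes. Gatm and Ass1 are low where the sum is low, in controls (C) as in knockouts (K), Ckmt1 of knockout replicate 3 lies apart at 22.9, and Oat stays between 137 and 165.

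The rest of the pathways was read from 5 lists with 54 genes, of which 50 were tested; Ckmt2, Otc, Nags and Slc25a2 were too low. Of the 50, 14 fell and 1, Azin2, rose with edgeR, which called 8.27% of all genes lower and 6.61% higher. The median log2 fold change was −0.14. At an unadjusted p under 0.05, 23 were lower and 4 higher, beside 6489 of all 18485 genes in either direction. DESeq2 called 19 lower and 4 higher (24.4% of all genes in either direction), and limma-voom 25 lower and 6 higher (44.9%). This count too rested on single libraries, as did the count over all genes. It was 26 without control replicate 2 (37.4% of all genes) and 0 without knockout replicate 4 (0.819%). In the latter fit 21 had an unadjusted p under 0.05, beside 5035 of all 18672 genes. Between 2 and 6 were called without control replicates 1, 3 or 4 or knockout replicates 1 or 2, with 2% to 3.65% of all genes.

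In the list for creatine, 2 of 8 tested genes fell (median 0.01). Slc16a12, which encodes a creatine exporter, fell by 2.48 ± 0.59 (log2 fold change ± SE) at an adjusted p of 0.0290, from 37.7 ± 15.3 to 6.68 ± 5.52 CPM, with no overlap of the groups. Gnmt, a glycine methyltransferase that competes for the methyl donor used by Gamt, fell from 4.70 ± 1.6 to 1.96 ± 0.512 CPM (−1.26, adjusted p 0.0318).

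The list for arginine supply and the urea cycle had 4 of 11 genes lower past the test (median −0.43). Slc3a1 and Slc7a9 encode the partners of the transporter that reabsorbs arginine, other dibasic amino acids and cystine in the proximal tubule. Slc3a1 was at 60.8, 11.6, 30.5 and 87.7 CPM in the controls and at 2.79, 0.653, 4.32 and 2.34 CPM in the knockouts, a change of −4.20 (SE 0.68, adjusted p 0.0130). Exons of Prepl overlap those of Slc3a1 on the opposite strand. Slc7a9 fell from 12.8 ± 5.64 to 2.73 ± 1.30 CPM (−2.21, adjusted p 0.0189). The mitochondrial carriers for ornithine, Slc25a15, and for aspartate and glutamate, Slc25a13, fell by 0.57 and 0.99 on the log2 scale (adjusted p 0.0218 and 0.0225).

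Cps1, Otc and Arg1 form the urea cycle of the liver together with Ass1 and Asl. Otc had at most 3 counts in any library. Cps1 lay between 0.450 and 0.753 CPM in 6 libraries and at 5.32 and 6.19 CPM in knockout replicates 1 and 4 (log2 fold change 2.61, SE 0.80, adjusted p 0.0565). Arg1 was at 0.727 to 1.37 CPM in the controls and at 6.25, 1.41, 1.45 and 3.78 CPM in the knockouts (1.53, SE 0.50, adjusted p 0.0666). Both were thus highest in knockout replicates 1 and 4, the libraries with the highest adrenal sums, where a list of 6 liver genes also summed to 159 and 133 CPM against 13 to 104 CPM elsewhere. With the adrenal covariate the log2 fold changes were 1.06 for Cps1 and 0.71 for Arg1 (adjusted p 0.251 for both), and within the libraries with Y-linked transcripts, which leave out knockout replicates 1 and 4, they were 0.22 and 0.36. Without knockout replicate 3 they were 3 and 1.79, both past the test (adjusted p 0.0214 and 0.0365). The Y-linked covariate gave 1.46 for Cps1 and 0.96 for Arg1. Knockout replicates 1 and 4 were also the knockouts without Y-linked transcripts, so adrenal, liver and Y-linked transcripts cannot be told apart here. These fits adjust for or leave out the libraries where both genes were highest, so smaller values there do not decide on a cause. The part of other tissue in these values was not tested.

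In the list for nitric oxide and agmatine, 2 of 8 genes fell and 1 rose (median −0.25). Ddah1, which breaks down the nitric oxide synthase inhibitor dimethylarginine, fell from 87.0 ± 19.5 to 49.1 ± 5.36 CPM (−0.83, SE 0.16, adjusted p 0.0184). Agxt2, a mitochondrial aminotransferase that acts on the same inhibitor, fell from 16.5 ± 11.2 to 1.78 ± 1.68 CPM (−3.17, SE 0.75, adjusted p 0.0283). Azin2, an antizyme inhibitor that spares ornithine decarboxylase from degradation, rose from 20.6 ± 1.39 to 26.5 ± 0.622 CPM (0.36, SE 0.08, adjusted p 0.0223), and its groups did not overlap.

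For ornithine and proline, 3 of 7 genes fell (median −0.47). Aldh4a1 and Prodh, the enzymes that degrade proline to glutamate, fell by 1.30 and 0.69 on the log2 scale (adjusted p 0.0181 and 0.0271). Prodh was at 25.8 to 27.5 CPM in the knockouts, below the lowest control at 28.5 CPM. Pycrl, a reductase of proline synthesis, fell by 0.47 (adjusted p 0.0364), with overlapping groups.

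Downstream of Odc1, the list for polyamines had 3 of 16 genes lower past the test (median −0.06). Eif5a, the translation factor that carries hypusine, a residue made from spermidine, fell by 0.45 ± 0.07 (log2 fold change ± SE) at an adjusted p of 0.0134, from 593 ± 52.9 to 435 ± 21.7 CPM. Its groups did not overlap. Srm, spermidine synthase, and Dohh, which completes hypusine, fell by 0.47 and 0.41 (adjusted p 0.0293 and 0.0336). The log2 fold changes of these 3 were smaller than those of Gatm, Ass1 or Slc3a1.

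**Figure D4:**
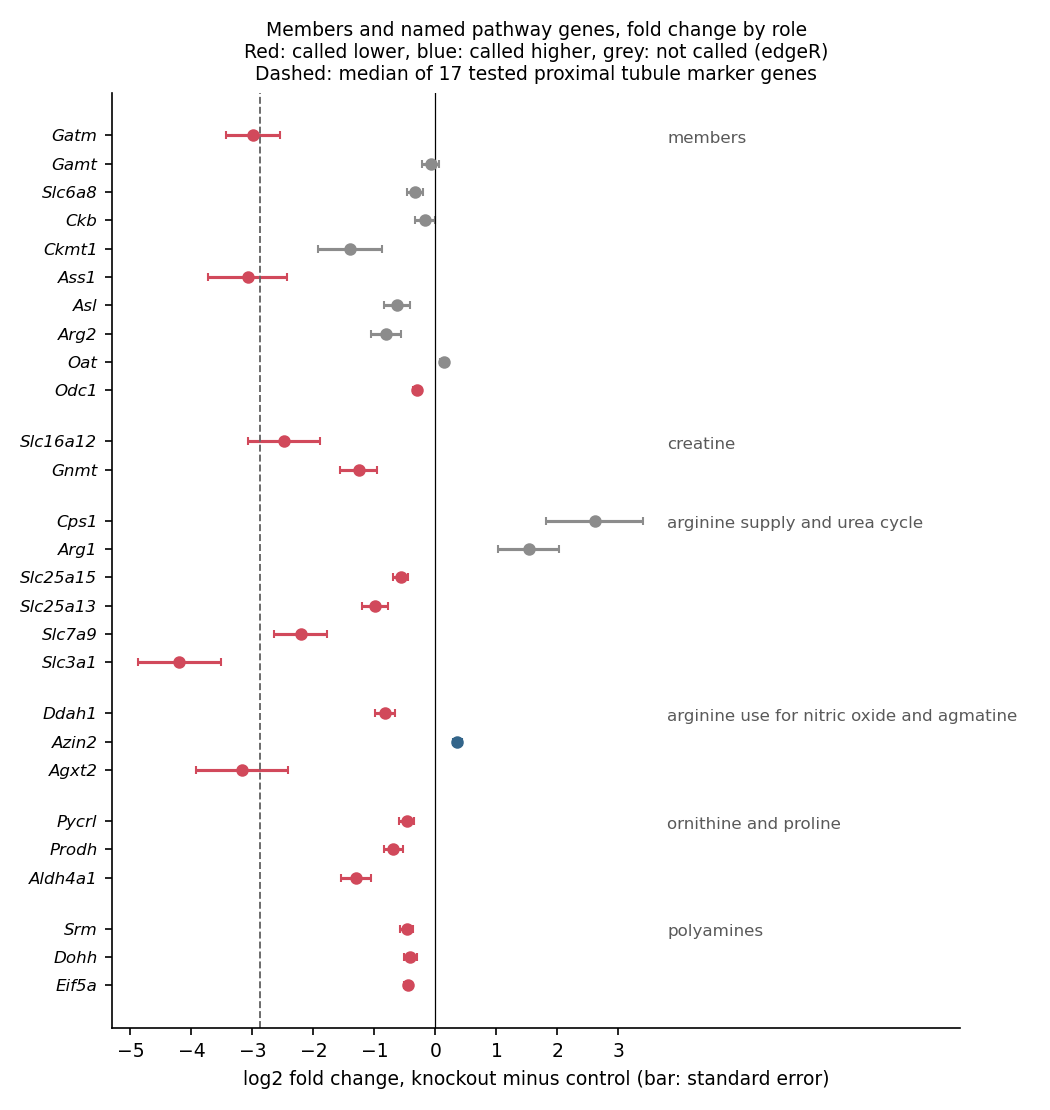
Log2 fold change (knockout minus control) with its standard error for the 10 members and the named genes of each pathway list, coloured by the edgeR call. The dashed line is the median of the tested proximal tubule markers, −2.88; Gatm (−2.99), Ass1 (−3.08) and Agxt2 (−3.17) lie near it, while Odc1 (−0.30) and Oat (0.14) lie near 0.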

How the data were processed

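Messenger RNA of 8 mouse kidneys was captured with oligo-dT and sequenced, per the labels' protocols. Per the file headers, the tables the authors deposited hold raw counts for each gene, with its coordinates and exon length. The submitters' processing notes name Trimmomatic 0.36, STAR 2.5.2b, featureCounts of Subread 1.5.2, DESeq2 and the build GRCm38. Strand settings and the treatment of reads shared by several genes are not given in the sources used here. The series table and the tables per library differed in 0 cells, 48970 of 49315 IDs had a symbol (GENCODE M21), and 91.4% had the same start and end there.

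Genes were kept by filterByExpr (18485), scaled by TMM and tested with edgeR 4.0.16 (quasi-likelihood, R 4.3.3) between genotypes, with no covariate and Benjamini-Hochberg adjustment over all genes. The standard error is the fold change over the root of F. The fit was run on simulated counts, drawn independently for each gene and library. They lack the differences between libraries that many genes share, so they do not bear on the effect of leaving out libraries. Alternatives were DESeq2 1.42.0, its size factors, limma-voom 3.58.1, other filters, a replicate block, covariates, the tables per library and left-out libraries. No pair of libraries was alike (chi-square per degree of freedom 12.0 or more). Nothing says that same-numbered samples were paired, and p values weigh the group difference against the spread between these samples only. The members and lists were chosen with earlier results of these data known. Named are all members, up to 4 called genes per pathway list by adjusted p, and Arg1, Cps1 and Otc.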

Additional observations from a re-analysis of the deposited data

Results flagged for a closer look

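Ckmt1 in knockout replicate 3 stood far from the other knockouts, at 22.9 CPM against 5.52 to 7.19 CPM. The gap took 0.904 of the range of the 4 knockouts, above the 95% critical value of Dixon's test for 4 samples. It was the only one past that value among the members and named genes, in 54 groups of 4 libraries checked, and chance alone passes it in about 1 of 20 groups.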

How the results depend on the processing

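Over all genes, 2751 were called, 3 of them members and 15 of them pathway genes. With DESeq2 these counts were 4506, 5 and 23, and with limma-voom and sample weights 8302, 8 and 31. Without control replicate 2 and knockout replicate 3, the libraries that lay between the groups, they were 7903, 9 and 29. Gamt was the one member not called. The adrenal covariate gave 1367, 2 and 9. Fits that left out 1 library ranged from 153 to 7084 genes, from 0 to 7 members and from 0 to 26 pathway genes. Deviations of same-numbered libraries correlated at −0.11, 0.33, 0.23 and −0.06. No reference value for unpaired libraries was computed, so these do not settle whether the samples were paired. The replicate block called 3229 genes (17.5%), 5 members (Ass1, Ckmt1, Gatm, Asl and Arg2, with Odc1 at an adjusted p of 0.0545) and 19 pathway genes. DESeq2 size factors, other filters, the Y-linked covariate, the libraries with Y-linked transcripts and the tables per library kept all 3 counts within 1.5 times. For single genes, 513 values were recomputed over 27 genes: 380 kept direction and call, 102 lost a call, 30 gained 1, and 1 changed direction (Gamt, 0.02 without control replicate 4, against −0.18 without control replicate 2 and knockout replicate 3). The cause was not tested. Low counts kept Otc, Ckmt2, Nags and Slc25a2 out of the test. Counts were also low for some tested genes, such as Cps1, at 11 to 13 counts in each control, and Agmat, at 0 to 13 in each knockout.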
